A study of Bos taurus with 45 samples.

Results

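The 100 genes described here are those whose level differed most between embryos among genes that were read in most, but not all, of the single-embryo RNA libraries of bovine demi-blastocysts. A gene counts as read in a library where it has 5 or more counts. Of 24616 genes in the table, 640 were read in 33 to 39 of the 40 libraries with a total of 1000000 or more counts, once 42 identifiers that the rule sets aside were left out. The 100 members were chosen by a measured value, the standard deviation (SD) of log2(CPM + 1) over the libraries that read the gene, and have the highest SD of the 640. CPM is the count per 1000000 counts of the library total. The SD values themselves are therefore a description and carry no test, and the other 540 genes, read as widely but with a lower SD, are given beside the members. The files name genes by Ensembl identifier only and do not pair them with gene names. The supplied table of bovine genes matched 0 of 100 members, so they are given by identifier, with no function and no sequence.

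A blastocyst is the hollow embryo of the first week, with an outer layer, the trophectoderm, that goes on to the placenta, and an inner cell mass that gives the embryo proper. In cattle the trophectoderm also makes the signal by which the mother recognises the pregnancy. A demi-blastocyst is one part of a blastocyst that was divided with a blade so that each part holds cells of both kinds.

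The embryos were produced in vitro with sperm sorted for the X chromosome and grown in serum-free medium that held either 10 ng/ml of recombinant bovine CSF2, a cytokine, or vehicle from day 5 to day 7. On day 7 each blastocyst was bisected, 1 part was sequenced and the other was transferred to a recipient cow, which was examined at day 30 and day 60 of gestation. Where the parts were unequal, the smaller or less intact one was sequenced. No pregnancy was seen at day 30 for 29 embryos, a group called not established, a pregnancy of day 30 was gone at day 60 for 6, called lost, and it was present at both examinations for 10, called maintained.

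The 40 libraries used by the rule come from 9 maintained, 5 lost and 26 not established embryos. The maintained embryos were 5 with CSF2 and 4 with vehicle, the lost embryos 1 and 4, and the not established embryos 12 and 14. These libraries held between 3906252 and 10326829 counts and read between 1095 and 6137 genes. The other 5 libraries held between 137808 and 853817 counts and are given apart. The labels describe each sample as 1 demi-blastocyst, so each embryo gave 1 library, and differences between embryos and differences between library preparations cannot be told apart. In libraries of mixed cells, fewer cells of a type and less RNA per cell cannot be told apart either. The labelled cell types were not checked against marker genes, which are known by name.

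The members varied over several orders of magnitude between embryos. Their SD of log2(CPM + 1) ran from 2.34 to 3.79 with a median of 2.46, against 0.60 to 2.34 with a median of 1.90 for the 540 other genes. At the threshold, ENSBTAG00000004269 and ENSBTAG00000018557 were just inside with an SD of 2.3421 and 2.3419, and ENSBTAG00000003098 and ENSBTAG00000004315 just outside with 2.34154 and 2.33325. Poisson counting of the reads alone would give a member an SD between 0.0975 and 0.273, with a median of 0.153. That figure covers counting error only, since copies of one molecule made during amplification are not independent. Within the 6 groups made by outcome and treatment the pooled SD of the members had a median of 2.45 and a range of 1.71 to 3.87, and that of the 540 other genes a median of 1.90. The lost group with CSF2 has 1 library and adds nothing to the pooled SD. These SD values come from the measure that chose the members and show nothing about the source of the spread.

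**Figure D1:**
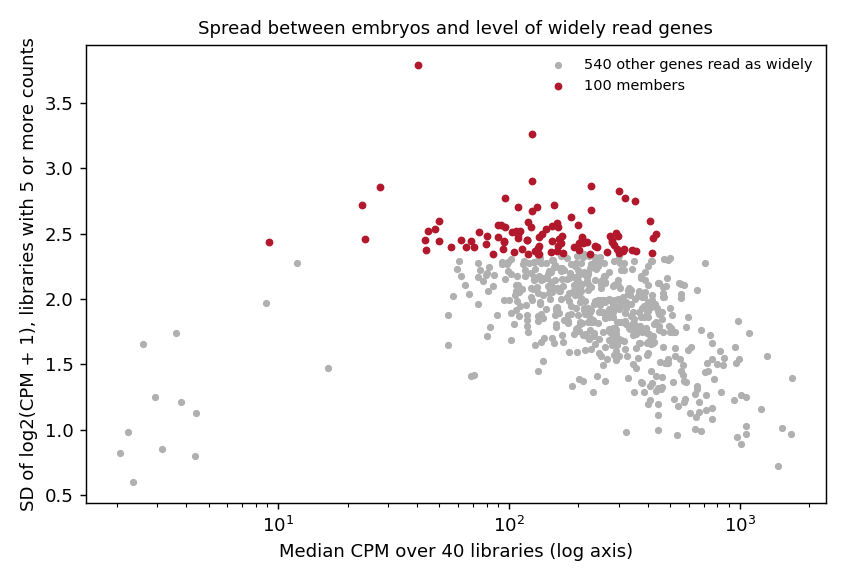
SD of log2(CPM + 1) over the libraries that read a gene (vertical axis) against its median CPM over the 40 libraries (horizontal log axis), for the 100 members (red) and the 540 other genes read as widely (grey). The members lie at 2.34 or above by the rule, and the middle 50 of them have a median between 95.1 and 219 CPM.

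The median spread of the members was of similar size in each group of embryos. The median over the members of the SD of log2(CPM + 1) was 2.37 in maintained, 2.30 in lost and 2.50 in not established embryos, and 2.45 with CSF2 against 2.52 with vehicle. For the 540 other genes the same medians were 1.66, 1.52, 1.91, 1.87 and 1.87. The SD of single members ran from 0.394 to 3.49 in maintained and from 0.179 to 4.84 in lost embryos. In not established embryos it ran from 1.61 to 3.92. The groups differ in size, with at most 5 values per member in lost embryos. The members were not the scarcest or the most abundant of the widely read genes. Their median CPM over the 40 libraries ran from 9.18 to 432, with a median of 135 against 259.6 for the others. CPM is not divided by gene length, so these levels do not rank transcript numbers between genes.

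The members' values in single embryos ran from absent to abundant, as did those of the other genes. Over the 4000 values of 100 members in 40 libraries, 25.5% lay below 10 CPM, 19.05% between 10 and 100 CPM and 55.45% at 100 CPM or more. For the other genes these shares were 15.9%, 14.6% and 69.5%. In 69 of the 100 members some embryos lay below 10 CPM while others reached 1000 CPM or more, and the same held for 404 of the 540 other genes. Of the 3496 values at or above 5 counts, 481 (13.8%) were below 50 counts, compared with 6.25% in the other genes. Of the 504 values below 5 counts, 370 were 0 and 134 were 1 to 4 counts. A count of 0 in these libraries allows a level of up to 0.291 to 0.768 CPM (3 counts of the total), which covers counting error only. Members were taken more often from genes read in fewer libraries, with 25 of the 103 genes read in 33 libraries and 3 of the 91 read in 39.

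**Figure D2:**
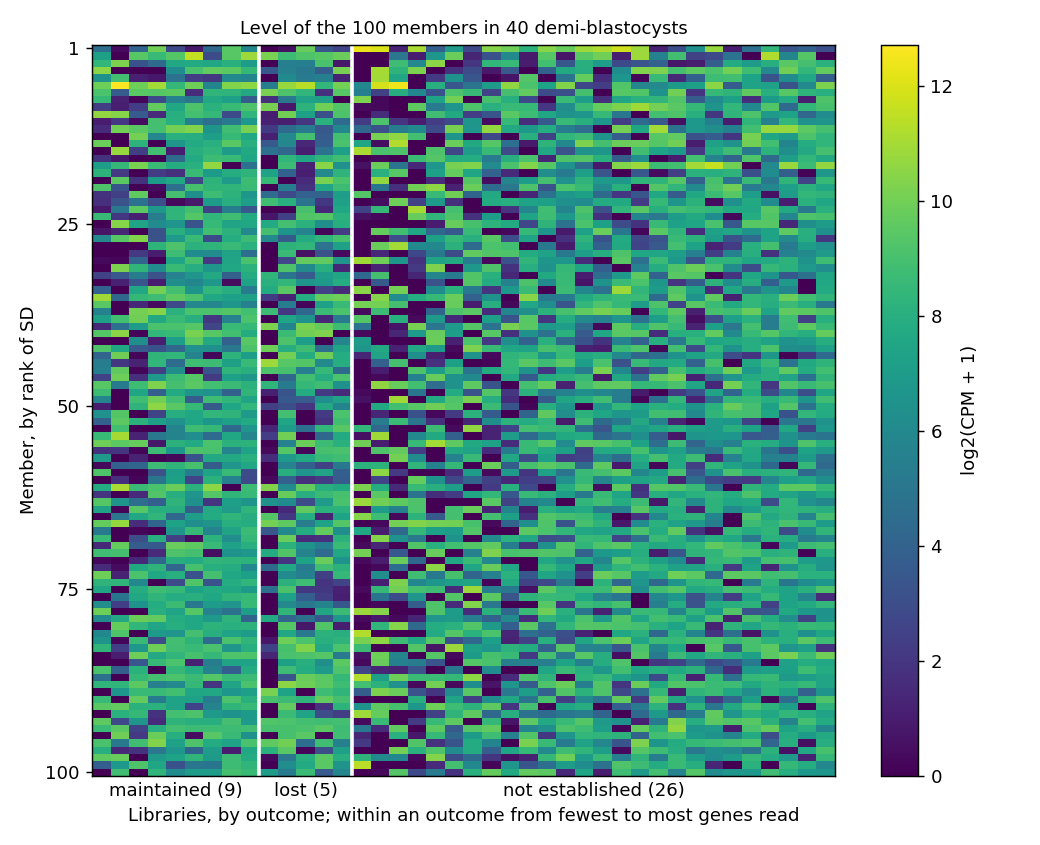
Level of each member (1 line each, from the highest SD at the top) in each of the 40 libraries, as log2(CPM + 1) on the colour scale, with the libraries set apart by outcome and ordered from fewest to most genes read. Dark cells, where a member was near 0, are most frequent at the left of each outcome. Of all values, 55.45% lie at 100 CPM or more and 4.6% at 1000 CPM or more.

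ENSBTAG00000032360 had the highest SD of all, 3.79. Its level was 1.05 CPM in the lowest, 308 in the median and 5315 in the highest of 26 not established embryos. In the 9 maintained embryos the lowest, median and highest were 0.311, 18.4 and 998 CPM. The 5 lost embryos had 0.486, 4.86, 866, 0 and 9.63 CPM. All 3 outcomes thus held embryos below 10 CPM and embryos above 100 CPM, and 14 of the 40 libraries lay below 10 CPM while 10 reached 1000 CPM or more. The 10 libraries at 1000 CPM or more were all from not established embryos.

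ENSBTAG00000032022 was second, with an SD of 3.26. It lay at 0, 29.6 and 2403 CPM (lowest, median and highest) in not established and at 0, 653 and 3040 CPM in maintained embryos. The lost embryos had 427, 909, 599, 1168 and 682 CPM, all of them high. These 5 values lie inside the range of both other outcomes, and the fitted log2 difference between lost and not established embryos was 0.92 with a standard error (SE) of 1.46 (edgeR, adjusted p = 0.946). In not established embryos 12 of 26 lay below 10 CPM and 9 at 100 CPM or more.

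ENSBTAG00000000878, ENSBTAG00000016265 and ENSBTAG00000005315 came next, with an SD between 2.86 and 2.91. ENSBTAG00000000878 ran from 0 through a median of 126 to 1477 CPM over the 40 libraries, and 12 of them lay below 10 CPM. ENSBTAG00000016265 ran from 0 through 226 to 2081 CPM and had no count in 7 libraries. ENSBTAG00000005315 was low in most embryos, with a median of 27.5 CPM and 17 libraries below 10 CPM, and reached 1993 CPM in not established replicate 24. For each of these 3 members both high and low embryos occurred under either treatment.

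ENSBTAG00000031205 reached the highest level of any member, 6780 CPM in maintained replicate 10, 1 of the 10 libraries with the fewest genes read. The levels of this member were 51.8, 964 and 6780 CPM (lowest, median and highest) in maintained and 0, 138 and 5459 CPM in not established embryos. The lost embryos had 1732, 1083, 2604, 40.3 and 339 CPM. It was read in 39 of the 40 libraries and passed 1000 CPM in 13, at least 1 of each outcome. ENSBTAG00000022902, with an SD of 2.71, showed a different pattern by outcome and is described with the tests.

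The remaining 5 of the 12 members with the highest SD were ENSBTAG00000015612, ENSBTAG00000013671, ENSBTAG00000006122, ENSBTAG00000019700 and ENSBTAG00000047699, with an SD between 2.72 and 2.77. Their medians over the 40 libraries were 319, 96.2, 350, 157 and 23.1 CPM, and their highest values 1165, 1232, 1937, 1600 and 576 CPM. ENSBTAG00000047699 alone of the 12 had at least 1 count in every library. The highest value of these 5 members fell in 5 different libraries, which were 3 not established, 1 lost and 1 maintained. The highest values of all 12 members fell in 9 libraries.

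**Figure D3:**
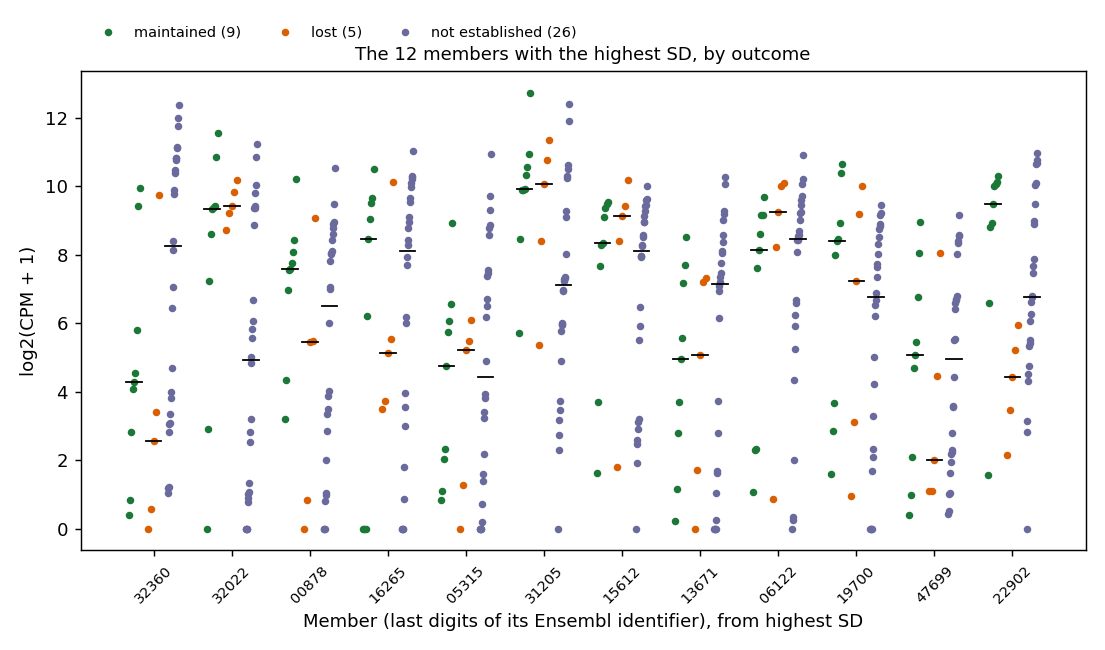
log2(CPM + 1) (vertical axis) of the 12 members with the highest SD, named by the last digits of the identifier, in each of the 40 libraries, 1 point per embryo, by outcome. Black bars are group medians, and the outcomes overlap for every member shown.

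Members with the highest median CPM varied in the same way. ENSBTAG00000021769, ENSBTAG00000006543, ENSBTAG00000006045 and ENSBTAG00000022278 had medians of 432, 421, 418 and 410 CPM, and ENSBTAG00000016562 and ENSBTAG00000019648 had 357 and 341 CPM. ENSBTAG00000006122 and ENSBTAG00000015612, named above, complete the 8 members with the highest median. Each of the 8 had no count in at least 1 library and reached at least 1163 CPM in another. ENSBTAG00000022278 spanned the widest range of them, from 0 to 3138 CPM, with 13 libraries at 1000 CPM or more and 7 below 10 CPM. ENSBTAG00000006045 lay between 438 and 709 CPM in the 5 lost embryos, while not established embryos ran from 0 through a median of 151 to 1605 CPM. The lost embryos lie inside that range, and the fitted log2 difference was 0.55 with an SE of 1.07 (edgeR, adjusted p = 0.968).

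The libraries that read few genes held most of the highest values of the members and, as follows from reading few genes, most of the values below 5 counts. The 10 libraries with the fewest genes read, 1095 to 2485, held 322 of the 504 values below 5 counts (63.9%) and also the highest value of 63 of the 100 members. The lowest value of a member among libraries that read it lay in these 10 libraries for 27 members and in the 20 libraries with an intermediate number of genes for 65. The 10 libraries with the most genes, 4330 to 6137, held 29 of the values below 5 counts and the highest value of 3 members. The other 540 genes showed nearly the same, with 69.2% of their values below 5 counts and 54.6% of their highest values in those 10 libraries with the fewest genes. Totals of the 10 libraries with the fewest genes lay between 3906252 and 6427278 counts, against 4004897 to 10326829 in the others.

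Single libraries stood out. Not established replicate 25 read the fewest genes, did not read 58 of the members and held the highest value of 12. Lost replicate 4 did not read 49 members and held the highest value of 3. Not established replicates 19 and 24 did not read 40 and 33 members and held the highest value of 10 each. These 4 libraries, the ones that read under 2000 genes, together held the highest value of 35 members. At the other end, maintained replicate 3, with 6137 genes, read all 100 members and held the highest value of 0 members. What part the number of genes read in a library plays in the spread of a member was not tested.

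**Figure D4:**
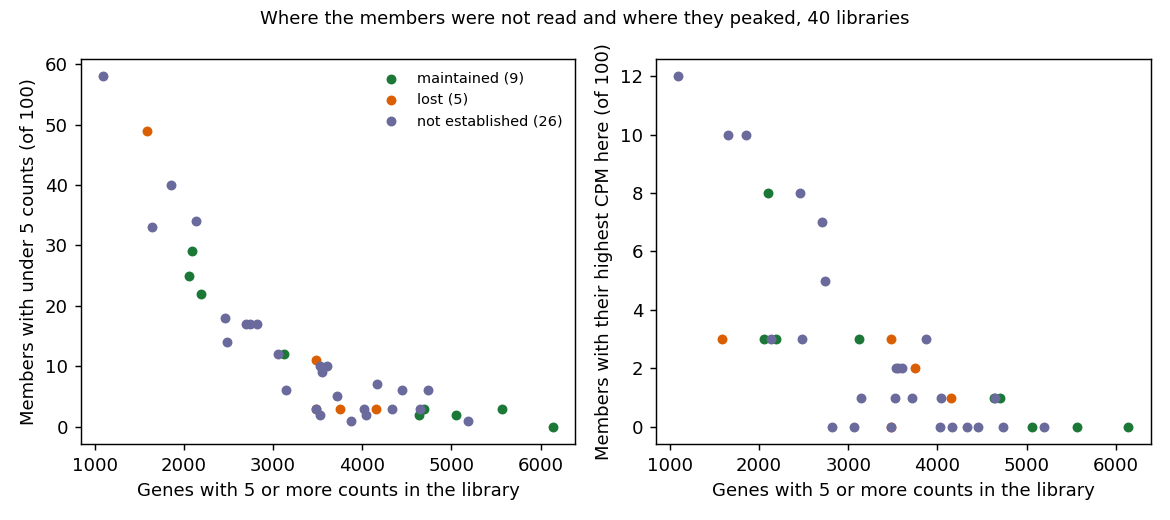
Number of the 100 members with under 5 counts (left) and with their highest CPM (right) in each of the 40 libraries, against the number of genes the library read, coloured by outcome. Both numbers are largest in libraries that read few genes, such as not established replicate 25 with 58 and 12.

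By outcome, the number of members read had a lowest, median and highest value of 71, 97 and 100 in maintained, 51, 97 and 97 in lost, and 42, 92 and 99 in not established embryos. The share of a library's counts that fell on members was 2.82% ± 0.456 (SD, n = 9) for maintained, 2.65% ± 0.439 (SD, n = 5) for lost and 2.74% ± 0.571 (SD, n = 26) for not established embryos. With CSF2 the share was 2.78% ± 0.470 (SD, n = 18) and with vehicle 2.72% ± 0.573 (SD, n = 22). The differences between these means were smaller than the spread between embryos. The lowest share, 1.55%, was in not established replicate 4, and the highest, 4.31%, in not established replicate 24.

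The members did not move as a block. Over the 4950 pairs, the correlation of log2(CPM + 1) over the 40 libraries had a median of 0.09 and ran from -0.51 to 0.63. In 32 pairs (0.646%) it was above 0.5, against 3.09% of pairs of the other genes. All pairs share the same libraries and their depth, so these values are a description. Over only the libraries that read both genes of a pair, the median was 0.01. The first principal component of the members held 13.9% of their variance. Over the 40 libraries, that component followed the number of genes read, with a Pearson correlation of 0.88 and a Spearman correlation of 0.90, and 91 of the 100 members had a positive loading. Values below 5 counts enter that component, and 322 of the 504 lie in the 10 libraries with the fewest genes. The component is therefore a description, and it is given for the members only.

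The pairs most alike were ENSBTAG00000005557 with ENSBTAG00000004427 (Pearson correlation 0.63 over 40 libraries) and ENSBTAG00000001499 with ENSBTAG00000003044 (0.62). Next were ENSBTAG00000001332 with ENSBTAG00000018101 (0.59) and ENSBTAG00000002048 with ENSBTAG00000024822 (0.58). Over only the libraries that read both genes, the 4 correlations were 0.38 (n = 32), 0.32 (n = 33), 0.54 (n = 35) and 0.24 (n = 31). These pairs were chosen for the first value, so the choice alone can make the second value lower. Ranked by the second value, other pairs led, such as ENSBTAG00000021769 with ENSBTAG00000001499 (0.67 over 33 libraries that read both, 0.48 over 40) and ENSBTAG00000032022 with ENSBTAG00000001332 (0.59 over 31, 0.21 over 40).

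The 5 shallow libraries read few members. Not established replicates 8, 27 and 29 read 5, 2 and 6 of the 100, lost replicate 5 read 2 and maintained replicate 8 read 0. Where a member was read there it could be very high. ENSBTAG00000019701 had 12492 counts in not established replicate 29, which is 26284 CPM, against at most 1169 CPM in the 40 deeper libraries.

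Neither outcome nor culture entered the choice of members, and the groups were compared. The rule did favour a large spread over these same libraries, and that spread enters the error of each test. The number of members called is therefore not independent of the choice. The fit used edgeR's quasi-likelihood test on the 40 libraries with outcome and treatment as terms, over all genes that passed the filter on low counts, with Benjamini-Hochberg adjustment. All 100 members passed that filter. A gene is called at an adjusted p below 0.05, and the p-values measure the spread between these embryos as sequenced. The outcome comparisons share embryos, so they are not independent of each other.

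The first comparison asks whether members differ between embryos whose transferred part led to a maintained pregnancy and those for which none was seen. None of the members was called: 0 of 100, beside 10 of 7476 genes (0.134%). At an unadjusted p below 0.05 there was 1 member, against 8.75% of all genes and 0 of the 540 other genes read as widely. DESeq2 called 0 members and 2.75% of genes, and limma voom called 0 members and 0 genes. The median fitted log2 difference was -0.02 over the members and -0.01 over all genes, and 50 of the 100 members were positive.

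ENSBTAG00000031205 had the smallest p of the members in that comparison. With the values given above, 8 of 9 maintained embryos had at least 100 CPM of it against 15 of 26 not established embryos, and the groups overlapped. The fitted log2 difference was 1.64 with an SE of 0.69 (edgeR, p = 0.0175, adjusted p = 0.353), and it was 0.90 without maintained replicate 10. In only the 9 maintained and 9 not established libraries that share a replicate number, it was called higher (log2 difference 3.23, edgeR, adjusted p = 0.0215), as the 1 gene called of 2644 (0.0378%), a fit added after seeing the data. That fit leaves out not established replicates 19 and 24, the highest of that outcome at 5459 and 3837 CPM. It also leaves out replicate 14, at 0 CPM. No label ties embryos of equal number to each other. ENSBTAG00000032360 had a log2 difference of -2.58 with an SE of 1.51 (edgeR, adjusted p = 0.786), and of -3.87 without maintained replicate 1. ENSBTAG00000047441 had 0, 426 and 2235 CPM (lowest, median and highest) in maintained and 0, 254 and 1191 CPM in not established embryos, with a log2 difference of 1.16 (SE 0.80, edgeR, adjusted p = 0.939).

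Lost and not established embryos were compared next. Again 0 of 100 members were called by edgeR, beside 3 of 7476 genes (0.0401%), and 1 member had an unadjusted p below 0.05, against 17.4% of all genes and 1 of the 540 genes read as widely. The median log2 difference was -0.03 over the members and -0.49 over all genes, and 49 members were positive. DESeq2 called 3 of 100 members and 1 of the 540 genes read as widely. Of all genes to which it gave an adjusted p, it called 11.8%. All 3 members were lower in lost embryos, where 11.1% of genes were called lower. Limma voom called 0 members and 0.12% of genes.

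ENSBTAG00000022902 stood out in the lost embryos by its low level. They had 20.7, 60.8, 36.2, 3.47 and 10.1 CPM. Not established embryos ran from 0 through a median of 109 to 2008 CPM, with 14 of the 26 at 100 CPM or more. Maintained embryos ran from 1.99 through 717 to 1255 CPM, with 7 of the 9 at 100 CPM or more. All 5 lost embryos thus lay below 100 CPM, but both other outcomes held embryos as low. The fitted log2 difference of lost from not established embryos was -4.15 with an SE of 1.41 (edgeR, p = 0.00315, adjusted p = 0.172).

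DESeq2 put that difference at -4.18 and called it (adjusted p = 0.000438). Over the 48 other settings of that comparison, each library left out in turn included, DESeq2 was the 1 that called ENSBTAG00000022902, and the adjusted p ran from 0.000438 to 0.812. In the vehicle embryos alone, its levels were 3.47, 23.1 and 60.8 CPM (lowest, median and highest) in 4 lost, 1.99, 271 and 717 CPM in 4 maintained and 7.80, 144 and 2008 CPM in 14 not established embryos. The 1 lost embryo with CSF2 had 20.7 CPM, whereas the 5 maintained embryos with CSF2 lay between 488 and 1255 CPM.

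The other members that DESeq2 called lower in lost embryos were ENSBTAG00000003638 and ENSBTAG00000032848. ENSBTAG00000003638 had 14.7, 12.1, 2.38, 0.232 and 3.63 CPM in the lost embryos, with a DESeq2 log2 difference of -3.82 (adjusted p = 0.032) against -3.67 and an adjusted p of 0.660 in edgeR. ENSBTAG00000032848 had 48.2, 34.6, 13.5, 0 and 4.75 CPM there, with a DESeq2 log2 difference of -3.39 (adjusted p = 0.0381) against -3.19 and an adjusted p of 0.418 in edgeR. For ENSBTAG00000022902, ENSBTAG00000003638 and ENSBTAG00000032848 the SE was 1.01, 1.31 and 1.18 in DESeq2 and 1.41, 2.85 and 1.88 in edgeR, beside differences of like size. The SE was obtained in a different way for each tool. These identifiers are given because a second tool called them.

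ENSBTAG00000007512 and ENSBTAG00000012586 had the next smallest p among members in edgeR. ENSBTAG00000007512 had 1088, 233, 232, 0 and 993 CPM in lost embryos and 0, 70.5 and 384 CPM (lowest, median and highest) in not established embryos. Its log2 difference was 2.34 with an SE of 1.31 (edgeR, adjusted p = 0.375). ENSBTAG00000012586 was below 100 CPM in 4 of 5 lost embryos, with 57.8, 543, 1.74, 10.7 and 13.1 CPM against 0, 272 and 2334 CPM in not established embryos. Its log2 difference was -2.30 with an SE of 1.32 (edgeR, adjusted p = 0.398), and -4.12 without lost replicate 2, the embryo at 543 CPM. For neither did the groups separate.

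With the 5 shallow libraries added to the fit, 1 other member was called in this comparison. ENSBTAG00000004554 was then higher in lost embryos (log2 difference 6.93, edgeR, adjusted p = 1.05e-07), where 0.854% of genes were called higher. Of the 6 lost embryos, the shallow replicate 5 had 1999 counts of it, or 2908 CPM, and the others had 654, 542, 0.159, 0.232 and 517 CPM. Without the shallow libraries its log2 difference was 1.01 (edgeR, adjusted p = 0.916).

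Between maintained and lost embryos, edgeR called 0 of 100 members and 0 of 7476 genes (0%). At an unadjusted p below 0.05 there was 1 member, beside 16.6% of all genes and 0 of the 540 others read as widely. The median log2 difference was 0.22 over the members and 0.53 over all genes, and 60 of the 100 members were positive. DESeq2 called 1 member, higher in maintained embryos, and 0 of the 540 others read as widely, beside 11% of genes called and 10.2% called higher. Limma voom called 0 members and 0.0134% of genes. ENSBTAG00000022902 was the member that DESeq2 called, with the levels given above. Its log2 difference was 4.51 with an SE of 1.51 in edgeR (adjusted p = 0.189) and 4.58 in DESeq2 (adjusted p = 0.00103). The lost embryos are the same in both comparisons, so the second is not independent of the first.

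ENSBTAG00000002048 and ENSBTAG00000001700 followed. ENSBTAG00000002048 had 10.4, 159, 11.4, 0 and 83.2 CPM in lost and 0, 333 and 1036 CPM (lowest, median and highest) in maintained embryos, with a log2 difference of 2.69 (SE 1.78, edgeR, adjusted p = 0.522). ENSBTAG00000001700 had 157, 1.10, 13.01, 0 and 3.91 CPM in lost embryos. In maintained embryos it had 0, 236 and 374 CPM, and the log2 difference was 3.17 (SE 2.26, edgeR, adjusted p = 0.586). Without lost replicate 1, the embryo at 157 CPM, it was 4.97. For both, the median of the lost embryos, 11.4 and 3.91 CPM, lay under that of the maintained embryos, and the groups overlapped. With all 45 libraries, ENSBTAG00000004554 was called lower in maintained than in lost embryos (log2 difference -6.30, edgeR, adjusted p = 0.00989), where 0.463% of genes were called lower.

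**Figure D5:**
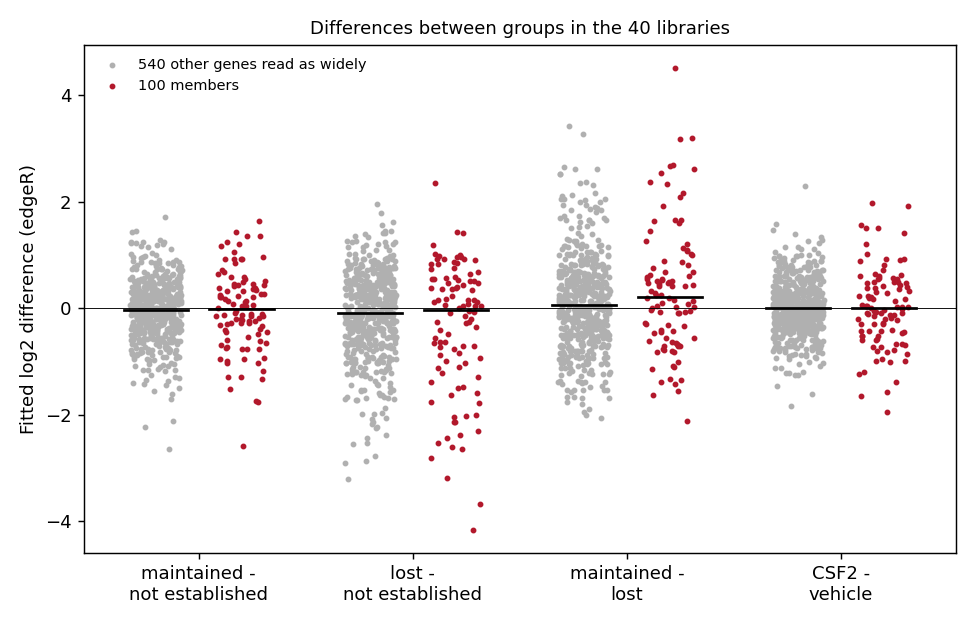
Fitted log2 difference (vertical axis, edgeR on 40 libraries) of the 100 members (red) and the 540 other genes read as widely (grey) in 4 comparisons, with black bars at the medians. The members scatter on both sides of 0, and their values furthest from 0, -4.15 and 4.51, both belong to ENSBTAG00000022902.

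CSF2 and vehicle embryos were compared with outcome in the model. EdgeR called 0 of 100 members, beside 50 of 7476 genes (0.669%), and 3 members had an unadjusted p below 0.05, against 9.62% of all genes and 0 of the 540 genes read as widely. DESeq2 called 0 members and 3.83% of genes, and limma voom called 0 of both. The median log2 difference was -0.00425 over the members, 50 of which were positive, and 0.01 over all genes. With outcome in the model, the comparison is between embryos of like outcome. Outcome was seen after the culture ended, so this need not give the whole effect of CSF2. Without outcome in the model, edgeR called 0 of 100 members and 36 of 7476 genes.

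ENSBTAG00000016265 had the smallest p of the members for treatment. Its levels were 0, 30.3 and 1014 CPM (lowest, median and highest) in 18 CSF2 embryos and 0, 469 and 2081 CPM in 22 vehicle embryos. It was read in 13 of the former and 20 of the latter, and the ranges overlapped. The log2 difference was -1.65 with an SE of 0.74 (edgeR, p = 0.0263, adjusted p = 0.361). ENSBTAG00000005197 had 0, 60.6 and 569 CPM with CSF2 and 0, 350 and 1555 CPM with vehicle, with a log2 difference of -1.95 (SE 0.89, edgeR, adjusted p = 0.378). ENSBTAG00000020040 went the other way, with 0, 165 and 2441 CPM with CSF2 and 0, 29.9 and 287 CPM with vehicle. Its log2 difference was 1.97 with an SE of 0.99 (edgeR, adjusted p = 0.495), and 1.25 without not established replicate 25.

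Whether the effect of CSF2 differed between maintained and not established embryos was tested by an interaction term. EdgeR called 0 of 100 members and 0 of 5010 genes (0%), and 1 member had an unadjusted p below 0.05, against 5.35% of all genes and 0 of the 540 genes read as widely. DESeq2 called 0 members and 3.76% of genes, and limma voom called 0 of both. The median interaction was 0.19 over the members, 56 of which were positive, and 0.21 over all genes. Only 1 lost embryo had CSF2, so lost embryos were left out of this fit.

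ENSBTAG00000014423 had the smallest p for the interaction. It had 0, 6.11 and 58.9 CPM (lowest, median and highest) in 5 maintained CSF2 embryos and 1.63, 77.9 and 708 CPM in 4 maintained vehicle embryos. In not established embryos it had 0, 331 and 1081 CPM with CSF2 (n = 12) and 0, 227 and 1054 CPM with vehicle (n = 14). The interaction was -4.09 on the log2 scale with an SE of 2.06 (edgeR, p = 0.0467, adjusted p = 0.900), and -1.92 without maintained replicate 4, the embryo at 708 CPM. ENSBTAG00000013671 and ENSBTAG00000010871 followed, at -4.22 with an SE of 2.38 and 4.39 with an SE of 2.54 (edgeR, adjusted p of 0.999901 for both). For ENSBTAG00000010871 it was 7.77 without maintained replicate 7.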

How the data were processed

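The values are read counts, deposited by the authors as 1 table of genes by 45 single-embryo libraries without normalization. The libraries were made with a NuGEN Ovation SoLo kit with depletion of unwanted transcripts, per the labels' protocols. Genome builds UMD3.1 and bosTau8, and edgeR, appear in the submitters' processing notes. The aligner, the counter, the use of strand and the handling of duplicates are steps not given in the sources used here, so genes that overlap or share sequence could not be marked. Columns were matched to samples by title. Outcome came from the pregnancy status label and treatment from the culture label.

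CPM was computed from column totals, with a pseudocount of 1 before log2. Groups were compared in R 4.3.3 with edgeR 4.0.16 on the 40 deeper libraries (filterByExpr, TMM, robust quasi-likelihood fit, outcome and treatment as terms, Benjamini-Hochberg adjustment at 0.05). Each edgeR SE is the log2 difference divided by the root of its F value, and each DESeq2 SE is the one that tool reports. For the interaction, lost embryos were left out. Alternatives were DESeq2 1.42.0, limma 3.58.1 voom with quality weights, other scalings, filters and thresholds, all 45 libraries, a block on replicate number, and the omission of each library in turn. Leaving out the 4 libraries under 2000 genes, and the libraries of the block without it, were added after seeing the data. The fit was also tested on simulated counts. There, with large changes set in some of the widely read genes, edgeR called unchanged genes read less widely more often than unchanged genes read widely. That setting was not matched to the few genes edgeR called in the data. The percentages of all genes given beside the members may hold such false calls too, which was not tested. Tables were made in Python 3.11.15 with pandas 2.3.3 and numpy 2.4.6.

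The members and lists were chosen with earlier results of these data known. Genes are named by this rule: the 12 members with the highest SD, the 8 with the highest median CPM, the 3 with the smallest p in each comparison where none was called, the genes next to the SD threshold, and the 4 pairs most alike. ENSBTAG00000003638, ENSBTAG00000032848 and ENSBTAG00000004554, which other settings called, and members high in shallow libraries are named outside that rule, after their values were seen. Marker and pathway lists, which are written as gene names, could not be matched to identifiers and were not used. Depth ranged from 137808 to 10326829 counts, and in the 40 deeper libraries 3 counts correspond to 0.291 to 0.768 CPM.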

Additional observations from a re-analysis of the deposited data

Results flagged for a closer look

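Single embryos stood apart from the rest of their group for several of the named members. In the 5 lost and in the 9 maintained embryos, the gap between the extreme value and its nearest neighbour was compared with the whole range. This was done for 21 members, for the share of counts on members and for the number of members read. Of 46 such sets of values, 14 had an extreme value far from the others. The limit used is passed by about 1 in 20 sets if values are normally distributed and the sets are independent. The sets share the same embryos, the members were chosen for a large spread between embryos, and the test was run on unlogged CPM. This number of lone values is therefore a description and cannot be set against that rate.

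Among the 5 lost embryos, 1 embryo stood far above the other 4 for 6 members. Lost replicate 6 had 534 CPM of ENSBTAG00000000878, with 44.1 CPM in the next embryo, and 265 CPM of ENSBTAG00000047699, with 21.2 CPM in the next. Lost replicate 2 had 1113 CPM of ENSBTAG00000016265 and 543 CPM of ENSBTAG00000012586, with 45.8 and 57.8 CPM in the next embryos. Lost replicate 1 had 157 CPM of ENSBTAG00000001700, with 13.01 CPM in the next, and lost replicate 3 had 866 CPM of ENSBTAG00000032360, with 9.63 CPM in the next. Lost replicate 4 read 51 members, where the next lowest lost embryo read 89.

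Among the 9 maintained embryos, replicate 10 stood apart for 4 members. Its library, with 2097 genes read, is 1 of the 10 with the fewest. That library held the highest value of 8 members and of 32 of the 540 other genes. Replicate 10 had 6780 CPM of ENSBTAG00000031205, 1194 CPM of ENSBTAG00000000878, 998 CPM of ENSBTAG00000007512 and 492 CPM of ENSBTAG00000005315. The next highest maintained embryos had 1981, 346, 341 and 93.5 CPM. Maintained replicate 1 had 1036 CPM of ENSBTAG00000002048, replicate 6 had 1066 CPM of ENSBTAG00000005197 and replicate 4 had 708 CPM of ENSBTAG00000014423, with 449, 366 and 97.4 CPM in the next embryos.

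In the 5 shallow libraries, which the comparisons leave out, 5 members were higher than in any of the 40 deeper libraries. Not established replicate 29 had 26284 CPM of ENSBTAG00000019701, 5729 CPM of ENSBTAG00000002746 and 5628 CPM of ENSBTAG00000018101, from 12492, 2723 and 2675 counts. Not established replicate 8 had 2976 CPM of ENSBTAG00000001888 from 2541 counts, and lost replicate 5 had 2908 CPM of ENSBTAG00000004554 from 1999 counts. The highest values in the deeper libraries were 1169, 1530, 1321, 1344 and 824 CPM, in the same order. The part that the low totals of these libraries play in such values was not tested.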

How the results depend on the processing

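The count of 0 members called was the same in each comparison with each of the 40 libraries left out in turn (lowest 0, highest 0), with DESeq2 size factors or library totals in edgeR, with limma voom, with no filter on low counts, at an adjusted p of 0.10 and without the 4 libraries under 2000 genes. With all 45 libraries it was 1 for lost against not established and 1 for maintained against lost. With DESeq2 it was 3 and 1. For maintained against not established it was 1 in the 18 libraries of the 9 pairs of equal number.

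The replicate block on those pairs called 0 members (smallest adjusted p 0.0660) and 1 of 2644 genes in edgeR. No label ties embryos of equal number to each other, and 0 of 9 correlations of deviations were above 0.1 and 1 of 9 libraries was most like its own number.

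Membership depends on the treatment of low counts. Of the 100 members, 55 were kept with a minimum of 10 counts, 26 with a minimum of 20, and 44 with the SD taken over all 40 libraries, zeros included. With a pseudocount of 0.5 or 5 or TMM-scaled CPM 98, 88 and 94 were kept, and 88 to 99 with 1 library left out. The median correlation of 0.09 between members was 0.10 with TMM-scaled CPM.

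Over all genes, maintained against not established gave 1400 calls with no filter and 150 with DESeq2, against 10. CSF2 against vehicle gave 2746 and 209 against 50, lost against not established 398 and 642 against 3, maintained against lost 18 and 603 against 0, and the interaction 0 and 168 against 0. The causes were not tested.

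Each group rests on few embryos, above all the 5 lost, which limits every comparison. In the 40 libraries, a count of 0 allows a level of up to 0.291 to 0.768 CPM (3 counts).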
